A study of Homo sapiens with 6 samples.

Results

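The miR-99/100 and miR-125 miRNAs are encoded at 3 places in the human genome, in each of which a miR-99 or miR-100 hairpin, a let-7 hairpin and a miR-125 hairpin follow each other on 1 strand. The array carried probes for 2565 miRNAs, and 10 of them were chosen by name: hsa-miR-100-5p, hsa-miR-100-3p, hsa-miR-99a-5p, hsa-miR-99a-3p, hsa-miR-99b-5p, hsa-miR-99b-3p, hsa-miR-125a-5p, hsa-miR-125b-5p, hsa-miR-125b-1-3p and hsa-miR-125b-2-3p, written below without the species prefix. RNA came from Panc-1, a human cell line derived from pancreatic ductal adenocarcinoma, after 72 h in 10 ng/mL TGF-β (3 arrays) or in 0 ng/mL (control, 3 arrays). Each array was hybridised with total RNA labelled with Cy5, and the question was which miRNAs changed with TGF-β. The 3 control arrays lay on 1 slide and the 3 TGF-β arrays on another, so slide and treatment cannot be told apart, and no label says that the arrays of a group came from separate cultures, so the p-values measure only the spread between these arrays, which may be technical.

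A miRNA directs the silencing complex to mRNAs that pair with its seed, bases 2 to 8 from its 5′ end, and each hairpin gives a 5p and a 3p strand of which one usually accumulates. miR-99 and miR-100 are best known for repressing MTOR, the kinase that couples growth to nutrients, while miR-125 is the vertebrate counterpart of lin-4, an early regulator of developmental timing. MIR100HG, the long non-coding host transcript of miR-100 and miR-125b-1, is known as a transcript that TGF-β raises in pancreatic cancer cells.

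The mature sequences of the 10 miRNAs, from RefSeq for GRCh38.p14, are shown because some share a seed and some are nearly identical throughout. Each is written 5′ to 3′ with the seed in capitals.
miR-100-5p: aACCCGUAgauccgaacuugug
miR-99a-5p: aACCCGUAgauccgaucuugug
miR-99b-5p: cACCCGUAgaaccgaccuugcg
miR-125b-5p: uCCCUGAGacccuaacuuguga
miR-125a-5p: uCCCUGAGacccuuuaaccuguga
miR-100-3p: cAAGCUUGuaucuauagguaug
miR-99a-3p: cAAGCUCGcuucuaugggucug
miR-99b-3p: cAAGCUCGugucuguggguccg
miR-125b-1-3p: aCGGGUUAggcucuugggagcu
miR-125b-2-3p: uCACAAGUcaggcucuugggac

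The 3 miR-99/100 5p strands share the seed ACCCGUA, and the 2 miR-125 5p strands share CCCUGAG. With positions counted from 1 at the 5′ end, miR-99a-5p differs from miR-100-5p by the single substitution A16U, and miR-99b-5p differs from miR-100-5p by A1C, U11A, A16C and U21C. miR-125b-5p and miR-125a-5p have their first 13 bases in common and differ in length, 22 against 24 bases. The 3p strands are less alike: miR-100-3p differs from miR-99a-3p at 5 positions, one of which, U7C, lies in the seed. The files give no probe sequence, so cross-hybridisation between miR-100-5p and miR-99a-5p was not tested.

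In RefSeq GRCh38.p14, MIR100HG spans chr11:122028329-122422871 on the minus strand and holds MIR100 at chr11:122152229-122152308, MIRLET7A2 at chr11:122146522-122146593 and MIR125B1 at chr11:122099757-122099844. MIR99AHG, also a long non-coding gene, spans chr21:16070488-16631727 on the plus strand and holds MIR99A at chr21:16539089-16539169, MIRLET7C at chr21:16539828-16539911 and MIR125B2 at chr21:16590237-16590325. The hairpins of the third locus lie within SPACA6, a protein-coding gene at chr19:51682686-51713143 on the plus strand, with MIR99B at chr19:51692612-51692681, MIRLET7E at chr19:51692786-51692864 and MIR125A at chr19:51693254-51693339. The let-7 and miR-125 hairpins are 46677 bp apart in MIR100HG and 50325 bp apart in MIR99AHG, against 389 bp in SPACA6. Both MIR125B1 and MIR125B2 give the same miR-125b-5p, so its probe cannot assign it to a locus, whereas their 3p strands differ. The MIR125B1 hairpin is printed here with both of its mature strands in capitals, the second of which is the one that no other locus yields.
MIR125B1: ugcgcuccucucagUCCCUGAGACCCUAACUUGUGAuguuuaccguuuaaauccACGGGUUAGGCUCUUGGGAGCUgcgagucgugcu

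**Figure D1:**
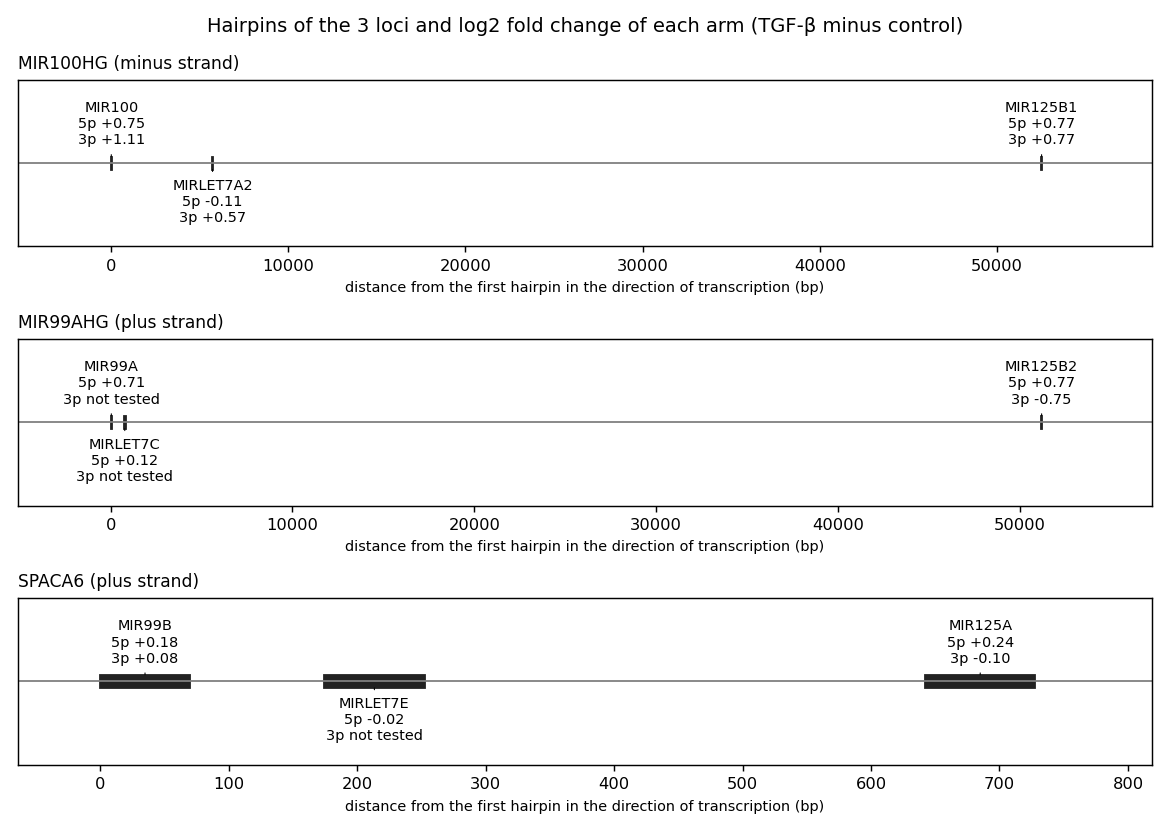
The hairpins of the 3 loci are drawn to scale along the direction of transcription, with the distance from the first hairpin in bp on the horizontal axis and the log2 fold change of each strand (TGF-β minus control) beside its hairpin. miR-100, miR-99a and miR-125b strands stand at 0.71 or above except miR-125b-2-3p at -0.75 and the untested miR-99a-3p, and the strands of the SPACA6 locus lie between -0.10 and 0.24.

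Values are given as normalized intensity, in scanner units above the mean of the array's blank spots after quantile normalization over the miRNA probes, and fold changes are TGF-β over control. A probe was called detected above the blank mean plus 2 SD, which came to 19.5 to 22.8 scanner units, and 1531 to 1787 miRNAs passed on an array. The test, in limma, took the 1457 miRNAs that were detected throughout 1 or both groups, and 58 of them had an adjusted p under 0.05, which is 3.98%: 38 (2.61%) were higher and 20 (1.37%) lower with TGF-β. Panc-1 identity could be checked only loosely: miR-21-5p, abundant in pancreatic cancer cells, had raw signals of 18373 to 25471 scanner units, 2 of 6 epithelial markers (miR-200a-3p and miR-200b-3p) were detected on all arrays at low signal and miR-141-3p on none, 0 of 3 acinar markers were detected on all arrays (miR-216a-5p on 2, miR-216b-5p and miR-217 on none), the islet miR-375 was detected on 1 array, and 2 of 5 blood markers (miR-142-3p and miR-150-5p) were detected on all 6. The 4 fibroblast and smooth muscle miRNAs summed to 15.7 to 17.4 units in control and 17.8 to 30.2 units in TGF-β, 3 of the 4 were detected on every array and 0 of 4 were called (limma, adjusted p = 0.0931 for miR-143-3p, the lowest). Their part in the results was not tested.

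Of the 10 miRNAs, 8 were detected on all 6 arrays and 9 entered the test, with miR-99a-3p left out for want of signal. TGF-β was accompanied by higher levels of 5 of them, miR-100-5p, miR-100-3p, miR-125b-5p, miR-125b-1-3p and miR-99a-5p, and 0 were called lower, also at an unadjusted p under 0.05. The median log2 fold change of the 9 tested members was 0.71, against -0.013 over all 1457 miRNAs tested. After normalization the arrays of the 2 groups did not overlap, with TGF-β higher, for 7 members, and the same held for 8.79% of all tested miRNAs. Among the 7, the raw signals of miR-99b-5p and miR-125a-5p overlapped. By locus, 4 of 4 members from MIR100HG were called higher, 2 of 4 from MIR99AHG and 0 of 3 from the SPACA6 locus, with miR-125b-5p counted at both of the first 2 loci. The other call at MIR99AHG, miR-99a-5p, is 1 base away from miR-100-5p, and cross-hybridisation was not tested. The 3p strands of MIR99AHG were near the blanks, miR-99a-3p untested and miR-125b-2-3p not called. Of the 3 at the SPACA6 locus, 2 had an unadjusted p under 0.05 in limma, and the methods' t-test after adjustment also called 0. With no background correction limma also called 5 members and 58 miRNAs. With each spot's local background in normexp with an offset of 50 units, limma called 0 members and 0 of all miRNAs (0 and 34 at an unadjusted p under 0.05), and the methods' t-test after adjustment called 0. That local background was 0.434 to 0.990 of the signal on bright spots, depending on the array. Adding 50 units to the blank-corrected values, an alternative chosen after seeing the data, gave 5 members and 55 miRNAs, with smaller fold changes of dim spots.

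**Figure D2:**
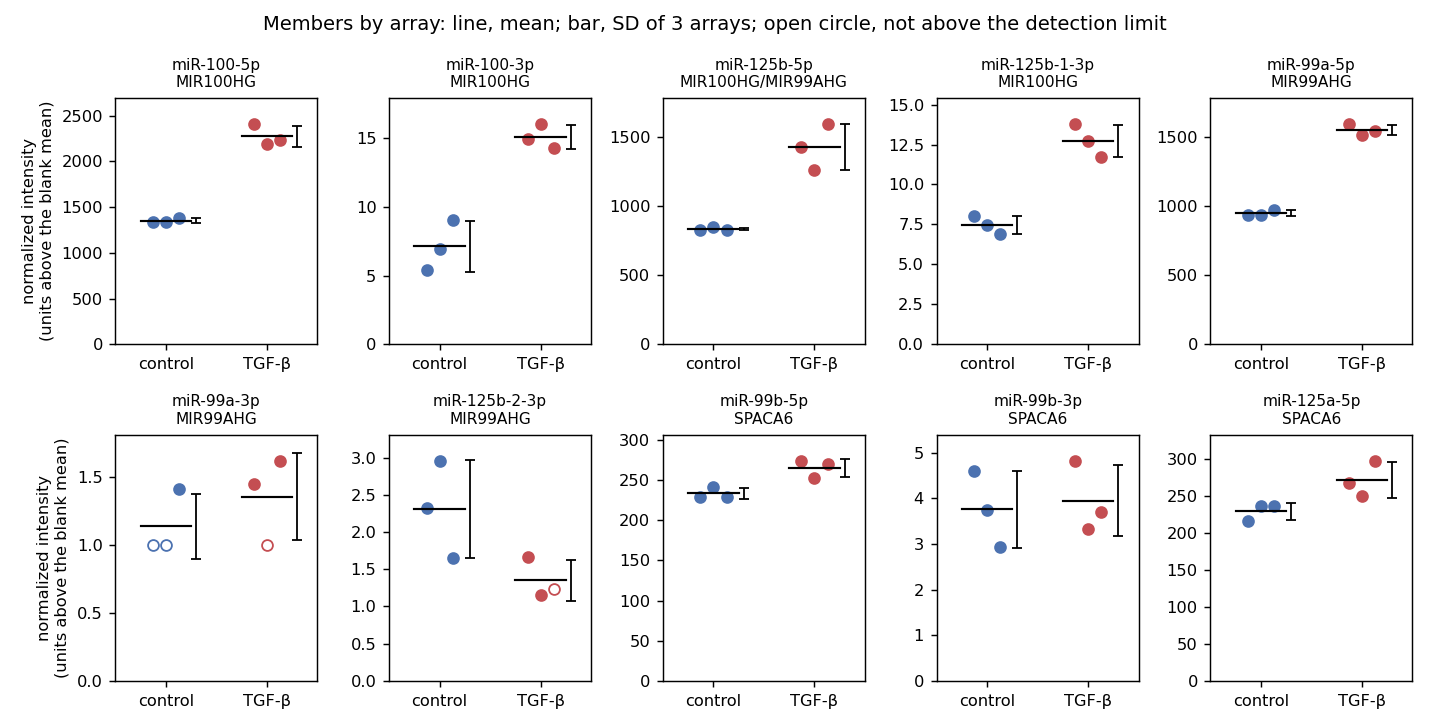
Each panel plots 1 miRNA, with normalized intensity on the vertical axis from 0 and 1 point for each array (3 control, 3 TGF-β). Lines mark means, bars SDs over 3 arrays, and open circles arrays where the probe was not above the detection limit. All TGF-β points lie above all control points for miR-100-5p, miR-100-3p, miR-125b-5p, miR-125b-1-3p, miR-99a-5p, miR-99b-5p and miR-125a-5p.

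At the MIR100HG locus, miR-100-5p had normalized intensities of 1334, 1335 and 1384 in the control arrays and 2406, 2187 and 2238 in the TGF-β arrays. Raw signals ran from 1141 to 1764 in control and from 2085 to 2502 in TGF-β. After normalization the control values lay close together and well below every TGF-β value. The means were 1351 ± 28.9 and 2277 ± 114 (SD, n = 3 each), a 1.68-fold increase (95% interval 1.55 to 1.83) and a log2 fold change of 0.75 with SE 0.055 (limma, adjusted p = 1.03e-05). It ranked 39 from the top among the 1457 log2 fold changes. In the authors' processed table, scaled otherwise, the means were 5468 ± 727 and 10047 ± 1669, a ratio of 1.84. With local background the log2 fold change of miR-100-5p was 0.26 (limma, adjusted p = 0.992), and leaving out any single array gave 0.69 to 0.79. Without normalization between arrays it was 0.75 with SE 0.19 (limma, adjusted p = 0.0106).

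The other strand of this hairpin, miR-100-3p, is usually the minor one and had a dim spot, at 5.38, 6.91 and 9.07 units in control and 14.9, 16.0 and 14.3 units in TGF-β. Every array was at least 7.53 blank SDs above the blank mean, and the groups did not overlap. The rise was 2.17-fold (95% interval 1.63 to 2.87), a log2 fold change of 1.11 with SE 0.18 (limma, adjusted p = 0.00521), at rank 12 of 1457. The size rested on subtracting the blank from a dim spot: without background correction the log2 fold change was 0.38 (limma, adjusted p = 0.00224). The call was lost with local background (log2 fold change 0.048), and limma's adjusted p was 0.108 with a floor of 4 units, 0.159 over all miRNA probes, 0.0523 without the trend and 0.0706 without the second TGF-β array. It was also lost in the methods' t-test after adjustment. The MIR100 hairpin below carries both strands, in capitals.
MIR100: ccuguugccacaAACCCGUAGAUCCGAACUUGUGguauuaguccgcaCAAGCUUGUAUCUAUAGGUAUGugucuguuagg

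The 3p strand that marks MIR125B1, miR-125b-1-3p, stood at 8.01, 7.46 and 6.89 units in control and at 13.8, 12.7 and 11.7 units in TGF-β. These dim spots were still 10.9 to 25.5 blank SDs above the blank mean, and again no TGF-β array reached down to the control range. Its fold change was 1.71 (95% interval 1.38 to 2.11), a log2 fold change of 0.77 with SE 0.14 (limma, adjusted p = 0.00855). The call was lost with local background, at a log2 fold change of 0.0023, without the first or the second TGF-β array (limma, adjusted p = 0.0613 and 0.0701), over all miRNA probes (limma, adjusted p = 0.0546) and in the methods' t-test after adjustment. Without background correction it held at a log2 fold change of 0.26.

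The 5p strand common to MIR125B1 and MIR125B2, miR-125b-5p, measured 828, 847 and 828 units in control and 1431, 1260 and 1593 units in TGF-β. Raw signals ran from 741 to 966 in control and from 1284 to 1605 in TGF-β. After normalization the TGF-β arrays spread more widely than the controls but stayed above them. Means of 834 ± 10.8 and 1428 ± 166 (SD, n = 3 each) gave a 1.70-fold rise (95% interval 1.51 to 1.92) and a log2 fold change of 0.77 with SE 0.079 (limma, adjusted p = 0.000132). Without normalization between arrays the log2 fold change was 0.77 with SE 0.18 (limma, adjusted p = 0.00407). It was 0.98 with local background, where the adjusted p in limma was 0.990, and 0.68 to 0.86 when 1 array was left out. The call was also lost over all miRNA probes (limma, adjusted p = 0.0546) and in the methods' t-test after adjustment.

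At the MIR99AHG locus, miR-99a-5p, 1 base away from miR-100-5p, had 938, 939 and 974 units in control and 1592, 1518 and 1540 units in TGF-β. Raw signals ran from 827 to 1093 in control and from 1473 to 1727 in TGF-β. After normalization the 2 groups were tight and far apart. The rise was 1.63-fold (95% interval 1.50 to 1.77), a log2 fold change of 0.71 with SE 0.053 (limma, adjusted p = 1.03e-05). Without normalization between arrays the log2 fold change was 0.77 with SE 0.18 (limma, adjusted p = 0.00439). With local background it was 0.99 (limma, adjusted p = 0.990). Its partner strand miR-99a-3p, with raw signals of 18.7, 20.0 and 23.0 in control and 20.8, 18.4 and 22.5 in TGF-β, passed the detection limit on 1 control and 2 TGF-β arrays and was not tested.

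The strand that marks MIR125B2, miR-125b-2-3p, gave 2.32, 2.95 and 1.65 units in control and 1.66, 1.15 and 1.24 units in TGF-β. All of these values were near the blank spots, 1.83 to 4.54 blank SDs above them, the third TGF-β array was below its detection limit, and the groups overlapped by the narrow margin of the third control and the first TGF-β array. It entered the test only through the control group, where it read higher and was detected on all 3 arrays. The log2 fold change was -0.75 with SE 0.35 (95% interval -1.53 to 0.032), which did not pass (limma, adjusted p = 0.387, and exact permutation test, 2-sided, p = 0.2). Without background correction the log2 fold change was -0.064, and with local background it was -0.028. The within-array difference between miR-125b-1-3p and miR-125b-2-3p changed by 1.52 on the log2 scale, a size set by a probe near the blanks: it was 0.77 with a floor of 4 units, 0.32 without background correction and 0.030 with local background.

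At the SPACA6 locus, miR-99b-5p had 229, 241 and 229 units in control and 274, 252 and 270 units in TGF-β. Raw signals overlapped, at 228, 247 and 284 in control against 263, 285 and 303 in TGF-β. After normalization the TGF-β arrays lay just above the control arrays without overlap. The fold change of miR-99b-5p, 1.14 (95% interval 1.02 to 1.26), a log2 fold change of 0.18 with SE 0.069, did not pass after adjustment (limma, adjusted p = 0.244). Without normalization between arrays limma's adjusted p was 0.974. On the deposited values the log2 fold change was 0.31. For miR-125a-5p the values were 216, 236 and 236 units in control and 266, 249 and 297 units in TGF-β, also without overlap. Its raw signals overlapped, at 208, 240 and 288 in control against 254, 284 and 326 in TGF-β. Here the fold change was 1.18 (95% interval 1.04 to 1.34), a log2 fold change of 0.24 with SE 0.082 (limma, adjusted p = 0.201). That log2 fold change was 0.38 on the deposited values, 0.010 with local background and 0.16 without the third TGF-β array. Without normalization between arrays limma's adjusted p was 0.855. The minor strand miR-99b-3p ran from 2.92 to 4.59 units in control and from 3.32 to 4.82 in TGF-β, ranges that overlapped (log2 fold change 0.077, SE 0.24, limma, adjusted p = 0.947).

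**Figure D3:**
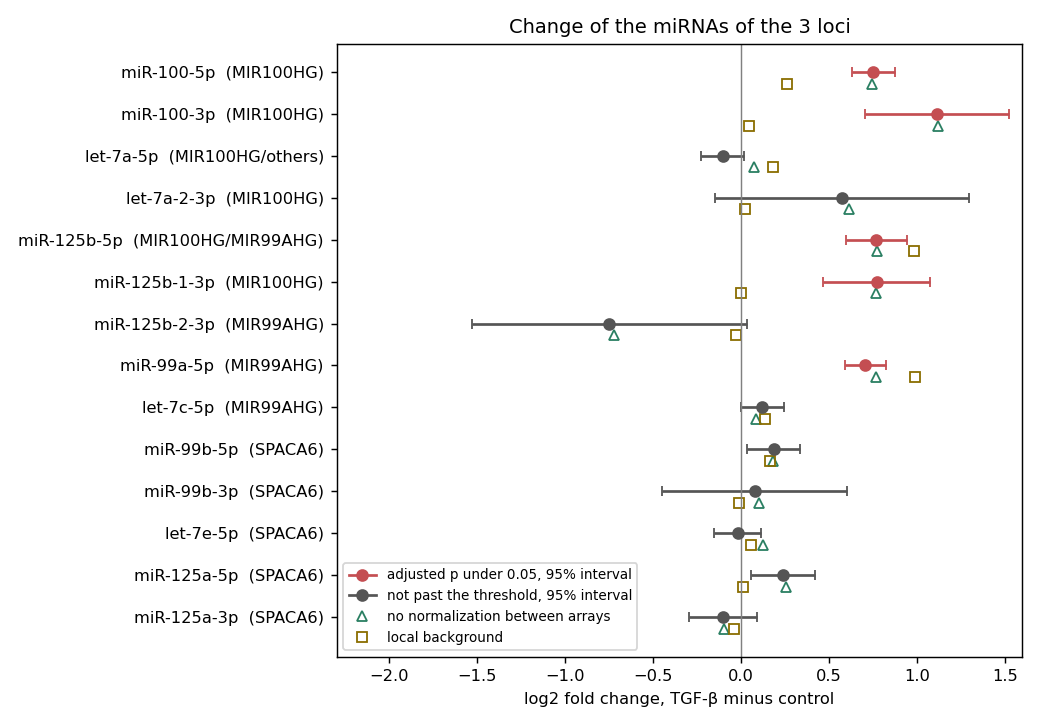
Filled points show the log2 fold change (horizontal axis, TGF-β minus control) of each tested miRNA of the 3 loci with its 95% interval, red where the adjusted p was under 0.05. Triangles give the value without normalization between arrays and squares the value with local background. The red points, from 0.71 to 1.11, belong to miR-100, miR-125b and miR-99a, the triangles sit beside them, and the squares of miR-100-3p and miR-125b-1-3p sit near 0.

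The let-7 hairpins lie between the others in all 3 loci and yield miRNAs that repress growth and stem cell genes. Their 5p strands, which share the seed GAGGUAG, were bright on every array. let-7a-5p differs from let-7c-5p only by A19G and from let-7e-5p only by U9G, and cross-hybridisation between them was not tested. In let-7a-5p the control arrays read 2788, 2596 and 2788 units and the TGF-β arrays 2595, 2596 and 2407, with overlap, and the log2 fold change was -0.11 with SE 0.055 (limma, adjusted p = 0.441). RefSeq has the same let-7a-5p at 3 hairpins, only one of which lies in MIR100HG. The log2 fold changes of let-7c-5p and let-7e-5p were 0.12 (SE 0.055) and -0.020 (SE 0.061), with limma adjusted p of 0.367 and 0.947. The TGF-β arrays of let-7c-5p, at 1484 to 1622 units, lay above its control arrays, at 1385 to 1455, while those of let-7e-5p overlapped. The raw signals of let-7c-5p overlapped too, at 1278 to 1791 in control and 1335 to 1756 in TGF-β. The direction of let-7a-5p and let-7e-5p depended on the scaling: without normalization between arrays their log2 fold changes were 0.072 and 0.12, and on the deposited values 0.20 and 0.25. The strand that only MIRLET7A2 yields, let-7a-2-3p, was dim, at 1.53 to 2.28 units in control and 1.89 to 3.83 in TGF-β, with a log2 fold change of 0.57 (SE 0.33, limma, adjusted p = 0.486). That log2 fold change was 0.066 without background correction and 0.35 to 0.86 with 1 array left out. With miR-125a-3p at -0.10 (SE 0.088, limma, adjusted p = 0.694), 0 of the 5 tested neighbours were called by limma, by the methods' t-test after adjustment or at an unadjusted p under 0.05 in limma, the methods' t-test before adjustment put let-7c-5p just under 0.05, and let-7c-3p and let-7e-3p were too dim to test.

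The differences between miRNAs in their change were tested within arrays, as the log2 difference of 2 probes on 1 array, for 11 pairs. With 3 arrays in each group the exact permutation test (2-sided) cannot give a p below 0.1, so no pair could pass. The smallest p after adjustment over the 11 pairs was 0.122. The arrays of the groups did not overlap for 9 of the 11 pairs, against 19% of the 1057785 pairs of tested miRNAs with values on all arrays. The 11 pairs share probes and were chosen with earlier results of these data known. They are therefore not independent, and no conclusion is drawn from the 9 against the 19%. The 9 include 2 with a probe at or near the blanks: miR-99a-5p against miR-99a-3p, which was undetected on 3 of 6 arrays, and miR-125b-1-3p against miR-125b-2-3p. The change of miR-100-5p exceeded that of let-7a-5p by 0.86 on the log2 scale, and that of miR-99a-5p exceeded let-7c-5p by 0.58. For miR-99b-5p against let-7e-5p it was 0.20, and 0.058 with overlap where arrays were not normalized.

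Among strands with the same seed, the change of miR-100-5p exceeded that of miR-99b-5p by 0.57, miR-99a-5p exceeded miR-99b-5p by 0.52, and miR-125b-5p exceeded miR-125a-5p by 0.53. None of these 3 overlapped, as was the case for 19% of all pairs, and their adjusted exact permutation p was 0.122. Between miR-100-5p and miR-99a-5p the difference moved by 0.047 with normalization, by -0.020 without it and by -0.73 with local background, so its direction depended on the scale. For the 2 strands of miR-100 the difference moved by -0.36 with overlap (exact permutation test, 2-sided, p = 0.3), by -0.52 without overlap when the third control array was left out, by 0.37 without overlap where no background was subtracted and by 0.21 with local background, so its direction depended on the background too. With local background, the arrays overlapped for each of the 11 pairs.

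**Figure D4:**
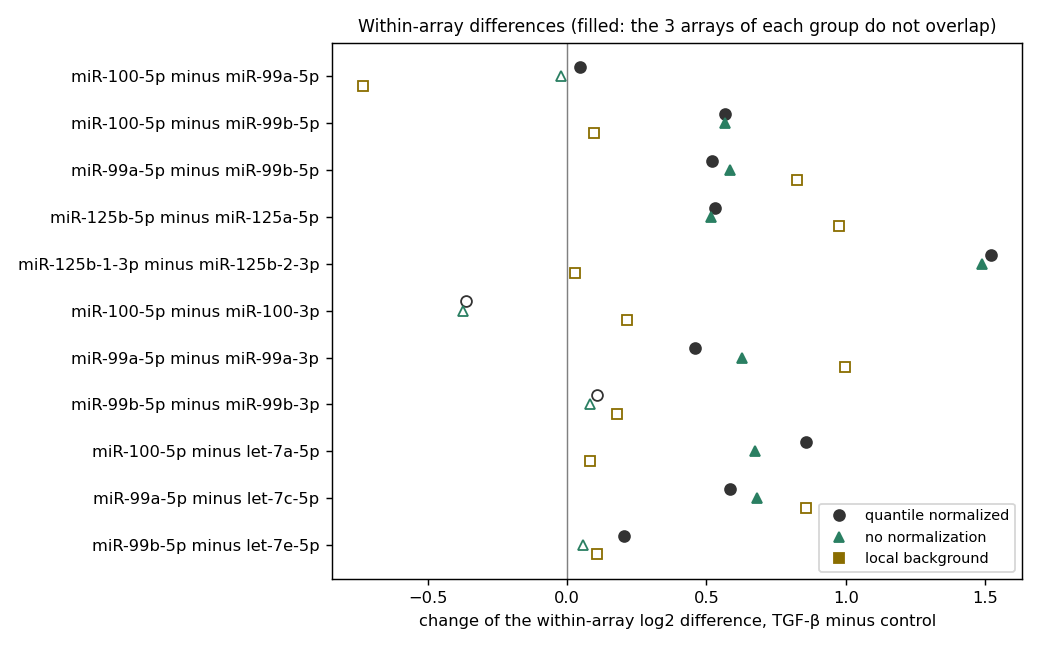
For each of 11 pairs, the horizontal axis gives the change of the within-array log2 difference from control to TGF-β (means of 3 arrays each), as circles with quantile normalization, triangles without normalization and squares with local background. Filled symbols mark pairs whose groups do not overlap. Circles and triangles of the miR-100 or miR-99a against miR-99b pairs and of miR-125b against miR-125a lie between 0.51 and 0.59, and no square is filled.

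Further miRNAs with related seeds did not all follow the members. miR-10a-5p and miR-10b-5p, of the same ancient family and encoded among the HOX genes, belong to a different seed group, as miR-10a-5p shows against miR-100-5p above.
miR-10a-5p: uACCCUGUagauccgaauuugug

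miR-10a-5p had 1792, 1673 and 1540 units in control and 1366, 1291 and 1128 units in TGF-β. After normalization miR-10a-5p and miR-10b-5p both fell without overlap, by 0.40 (SE 0.080) and 0.38 (SE 0.057) on the log2 scale (limma, adjusted p = 0.0148 and 0.00294). The raw signals of miR-10b-5p overlapped, at 1201 to 1624 in control and 981 to 1235 in TGF-β. Of 22 alternatives, 10 ended the call of miR-10a-5p and 6 that of miR-10b-5p with the direction kept, among them no normalization (limma, adjusted p = 0.489 and 0.672), the deposited values (limma, adjusted p = 0.749 and 0.876) and the fit without trend (limma, adjusted p = 0.230 and 0.149). Local background also ended both calls and turned the direction, to 1.06 and 0.23. Among the 2253 array miRNAs with a RefSeq sequence, 1 other had a member's seed and a level above background in a group, miR-4319, which has the seed of miR-125 and a log2 fold change of 0.024 (SE 0.14, limma, adjusted p = 0.982).

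Over the 6 arrays, the 3 miRNAs outside the members whose log2 values ran most like miR-100-5p, of 1274 compared, were miR-181b-5p (Pearson's r = 0.995), miR-4324 (0.995) and miR-381-3p (0.992). For miR-125b-5p they were miR-342-3p (0.990), miR-181a-5p (0.986) and miR-654-3p (0.983). The 6 points fall into the 2 treatment groups and share slides, so the coefficients are a description only. Their log2 fold changes ran from 0.20 (miR-381-3p, not called, limma, adjusted p = 0.135) to 1.28 (miR-181b-5p), and miR-654-3p, at 0.26, was not called either (limma, adjusted p = 0.0599).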

How the data were processed

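Total RNA of Panc-1 cells was labelled with Cy5 and hybridised to 6 Toray 3D-Gene miRNA arrays. The authors deposited for each array the median intensity of 3200 spots and of their local background, on a linear scale and without normalization. They also deposited a table of processed intensity values, whose method is not given in the sources used here. It could be rebuilt: blank mean (5% left out at each end) subtracted, median of detected miRNAs set to 25, values not above the blank mean plus 2 SD left empty. All 9663 values were within 1 unit.

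Here the same blank mean, over 320 blank spots, was subtracted, values were floored at 1 unit, log2 transformed and quantile normalized over 2565 miRNA probes. Local background was an alternative (normexp, offset 50), since it rose with the spot's own signal. Groups were compared with lmFit and eBayes with trend (limma 3.58.1, R 4.3.3), with Benjamini-Hochberg adjustment over 1457 miRNAs detected on every array of a group. Single values and pairs had exact permutation tests. The fitting step was also run on simulated data without a slide effect and with larger changes than most called members had. That run does not bear on the calls here. Alternatives covered background (1 of them, 50 units added to blank-corrected values, chosen after seeing the data), floor, scaling, detection limit, filter, trend, the replicate number as a block, the methods' t-test and leaving out each array. The miRNAs named were all 10 members, the other miRNAs of the 3 loci, array miRNAs with a member's seed detected in a group, miR-10a-5p and miR-10b-5p, and the 3 most correlated with miR-100-5p and with miR-125b-5p. The members and lists, and the choice of background, were made with earlier results of these data known.

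Sequences and positions came from RefSeq (GRCh38.p14), in which 2253 of 2550 single-name array miRNAs and all 10 members matched. Pairs of probes were compared for the change of their within-array log2 difference from control to TGF-β, not for which level was higher. The number of arrays limits the precision. Figures were drawn with matplotlib 3.10.9.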

Additional observations from a re-analysis of the deposited data

How the results depend on the processing

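Limits: with 3 arrays in each group on separate slides, treatment and slide cannot be told apart, and dim strands (miR-99a-3p, miR-125b-2-3p, miR-99b-3p, let-7a-2-3p) had little signal over background. Against 58 calls among all miRNAs, limma gave 0 with local background, 33 with a floor of 4 units, 35 without normalization, 31 on the deposited values, 19 over all probes and 32 without the trend, but 58 with no background correction and 55 with 50 units added to the blank-corrected values, an alternative chosen after seeing the data, and 5 members with either. The methods' t-test gave 17 after Benjamini-Hochberg and 194 before. Leaving out 1 array gave 25 (without TGF-β array 2) to 51, with 33 without TGF-β array 3 and 35 without control array 2. Against 5 members called, there were 0 with local background, 2 over all probes, 2 with the methods' t-test after Benjamini-Hochberg, and 3 (without TGF-β array 2) to 5 with 1 array left out. miR-100-5p and miR-99a-5p lost their call with local background and under no other alternative run. Members detected on all arrays were 8 to 9, and pairs without overlap, 9 in the report, were 0 with local background, 5 on the deposited values, where 2 pairs lacked values, 6 with median or 75th percentile scaling, 7 without normalization, 11 without background correction and 8 to 10 with 1 array left out.

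Directions that turned, with local background, median scaling, 75th percentile scaling, no normalization and deposited values in that order, were those of let-7a-5p (0.18, 0.096, 0.055, 0.072 and 0.20) and let-7e-5p (0.057, 0.15, 0.11, 0.12 and 0.25, and -0.061 to 0.017 with 1 array left out). For miR-100-5p against miR-99a-5p they were -0.73 and, in each of the other settings, -0.020, with -0.0032 to 0.092 when 1 array was left out. miR-100-5p against miR-100-3p, -0.36 with overlap in the report, turned to 0.21 with local background, 0.37 without background correction and 0.54 with 50 units added, and miR-99b-5p against miR-99b-3p to -0.044 without control array 1. With local background miR-10a-5p turned to 1.06, miR-10b-5p to 0.23 and miR-99b-3p to -0.012 (-0.089 to 0.23 with 1 array left out). miR-125a-3p turned to 0.032 on the deposited values, and miR-4319 to -0.018 with 75th percentile scaling, -0.00069 without normalization and -0.068 to 0.15 with 1 array left out. The cause was not tested.

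The replicate numbers were not taken to pair the arrays: deviations of same-numbered arrays correlated at 0.13, 0.11 and -0.027, not all above 0.1, and the third pair was not each other's best match, though with local background they correlated at 0.30, 0.48 and 0.25. With the replicate number as a block, limma called 60 miRNAs and 5 members.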
